A study of Mus musculus with 22 samples.

Results

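A set of 7 noncoding RNA genes, of the 49671 genes in the files, was followed through ribosome pulldown libraries of the mouse cochlea: Malat1, Neat1, Snhg11, Miat, Rn7sk, Lncpint and Kcnq1ot1. Their Ensembl identifiers were matched to mouse symbols. The members were chosen by measured values, namely their level in the pulldown against whole cochlear RNA over all ages, so this difference is given below as a description with no test. Every library came from mice of the genotype PrestinCreERT2/+;RiboTagHA/+. A tamoxifen-inducible Cre made from the prestin locus adds a haemagglutinin (HA) tag to the ribosomal protein Rpl22, chiefly in outer hair cells, the motile sensory cells that amplify sound. All mice had tamoxifen, at 3 mg per 40 g of body weight below 21 days of age and at 9 mg per 40 g from then on, so that dose and age cannot be told apart. RNA bound to tagged ribosomes (IP) was set beside total RNA of the whole cochlea (input) at P8, P14, P28, 6wk and 10wk, with 2 libraries per age and fraction and 3 at 10wk, 22 in all. The design text calls the libraries independent biological duplicates or triplicates. No source used here says whether animals were pooled, and libraries from mice without Cre were not analysed here. All 7 genes passed the filter on low values, a CPM (read counts scaled to the library's total) of at least 1 in at least 2 libraries, which 18737 genes passed.

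Ribosomes translate messenger RNA in the cytoplasm, whereas long noncoding RNAs of this kind are known mainly from the nucleus. Malat1 lies in nuclear speckles, which hold splicing factors. Neat1, the neighbouring gene, builds paraspeckles, bodies that form around it and retain RNA-binding proteins such as Nono and Sfpq. Miat (also called Gomafu) forms its own nuclear spots in neurons, and Snhg11 is a host of small nucleolar RNAs known from neural tissue. Rn7sk (7SK) is a small RNA made by RNA polymerase III that holds the elongation factor P-TEFb inactive together with Hexim1, Larp7 and Mepce. Lncpint is a spliced long noncoding RNA induced by p53, and Kcnq1ot1 is an unspliced RNA of the paternal chromosome that runs antisense to Kcnq1 and silences neighbouring imprinted genes such as Cdkn1c.

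On GRCm38 with GENCODE M21 the genes differed widely in size and structure. Malat1 (ENSMUSG00000092341) occupied chr19:5795690-5802672 and Neat1 (ENSMUSG00000092274) chr19:5824708-5845478, both on the minus strand and 22035 bases apart, each with exons that merge into 1 block. Snhg11 (ENSMUSG00000044349) lay at chr2:158375638-158386145 on the plus strand. GENCODE M21 typed it as protein coding. Miat (ENSMUSG00000097767) lay at chr5:112213228-112229395, Lncpint (ENSMUSG00000044471) at chr6:31082565-31220488 and Rn7sk (ENSMUSG00000065037) at chr9:78175303-78175633, all on the minus strand. Kcnq1ot1 (ENSMUSG00000101609) covered chr7:143203458-143296549 on the minus strand as 1 block of 93092 bases, opposite Kcnq1, with 1 Kcnq1 exon of 121 bases inside it. Exonic length ran from 331 bases (Rn7sk) to that of Kcnq1ot1. Malat1, Neat1, Snhg11, Miat and Lncpint also overlap annotated small RNAs, pseudogenes or other noncoding models. No source used here names the counting program or its use of strand, so reads of overlapping and antisense models cannot be told apart.

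Sequence features for which these RNAs are known were read from their GENCODE M21 transcripts and are printed 5′ to 3′ as DNA letters. The ends of Malat1 and Neat1 are shown because they are the known elements that close these unusual transcripts: capitals mark the U-rich runs (as T) and the A-rich run that fold together into a triple helix. In Malat1 (chr19:5795921-5796072, minus strand) the A-rich run is followed by the tRNA-like RNA that is cut off the end. The Neat1 window (chr19:5824708-5824802, minus strand) is the last 95 bases of the long isoform.
Malat1: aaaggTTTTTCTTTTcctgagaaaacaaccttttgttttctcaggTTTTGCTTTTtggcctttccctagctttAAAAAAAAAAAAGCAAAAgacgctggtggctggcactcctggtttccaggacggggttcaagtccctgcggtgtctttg
Neat1: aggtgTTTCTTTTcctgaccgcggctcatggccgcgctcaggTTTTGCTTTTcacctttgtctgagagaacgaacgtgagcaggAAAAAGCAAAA
A pattern written from these ends, a U-rich run and an A-rich run at most 120 bases after it on the RNA strand, occurred in 2 of 10155 long noncoding genes with a transcript sequence, Malat1 and Neat1 themselves.

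Miat is known for repeats of TACTAAC, the letters of the intron branch point, to which splicing factor 1 binds. Its 9163-base transcript held 6 copies on the RNA strand, 3 of them in the window shown (chr5:112217314-112217455, minus strand, copies in capitals). Rn7sk is shown by its first 110 bases (chr9:78175524-78175633, minus strand), where GATC repeats, in capitals, form the hairpin that Hexim1 binds.
Miat: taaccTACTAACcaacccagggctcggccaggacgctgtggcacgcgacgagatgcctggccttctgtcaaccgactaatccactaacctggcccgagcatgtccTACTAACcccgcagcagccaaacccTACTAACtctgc
Rn7sk: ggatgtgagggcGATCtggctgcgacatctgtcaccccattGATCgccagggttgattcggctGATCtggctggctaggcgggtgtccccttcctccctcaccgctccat
TACTAAC was found in 3.68% of long noncoding genes (374 of 10155) and in 5 of the 25 with a transcript of 75 to 125% of Miat's length, none of which held 6. Among the other members, Kcnq1ot1 held 4 copies and Neat1 held 1. At least 3 copies of GATC in the first 110 bases were found in 0.443% of long noncoding genes. CTACCTC, the match to the let-7 seed, stood 8 times in Kcnq1ot1 and 4 times in Neat1. That is 0.0859 and 0.193 copies per kb, against 0.0798 per kb over all long noncoding transcripts. The other 5 members held none. These are matches of letters only, on the longest transcript of each gene.

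The libraries held 30757875 to 71023032 reads, of which 14978013 to 39907763 were counted to genes. Outer hair cell markers were enriched, with 9 of 10 higher in IP (limma, all but Slc26a5), and their summed level ran from 273 to 1085 CPM in IP libraries and from 32.3 to 275 CPM in input libraries. Of all genes, 20.0% were higher and 12.5% lower in IP under the same rule (adjusted p under 0.05), and with trimmed-mean (TMM) scaling 3838 were higher and 4284 lower where 3747 and 2340 were before. A group of 3 libraries, P8 input replicate 2, P14 IP replicate 1 and P28 IP replicate 2, had 9853, 10810 and 10870 genes at a CPM of at least 1, where the others had 12393 or more. They are called low-yield below for these few genes and not for depth. P8 input replicate 2 had the most reads of all libraries, 71023032, and P28 IP replicate 2 had 24692236 gene reads. In P8 input replicate 2 one gene, Gm42418, took 58.3% of gene reads. Reads that fell outside genes made up 20.2 to 47.7% of IP libraries (32.9 ± 8.74%, SD, n = 11) and 11.1 to 20.4% of input libraries (13.3 ± 2.66%, SD, n = 11), and the fractions overlapped only between P8 libraries.

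The 7 RNAs together took 2.73 ± 1.48% of gene reads in IP (SD, n = 11; 0.495 to 5.06%) and 0.519 ± 0.148% in input (0.308 to 0.785%), most of it Malat1. IP exceeded the same-numbered input library in 11 of 11 cases for Malat1, Neat1, Snhg11, Miat and Kcnq1ot1, and in 9 of 11 for Rn7sk and Lncpint. Of all genes, 6.03% had IP above input in all 11. Within each of the 5 ages both or all IP libraries lay above all input libraries for Malat1 and Kcnq1ot1, a pattern that 3.42% of all genes showed. These shares are given for scale, since the members were chosen on this difference. In bulk RNA, fewer cells of a type and less RNA per cell cannot be told apart.

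**Figure D1:**
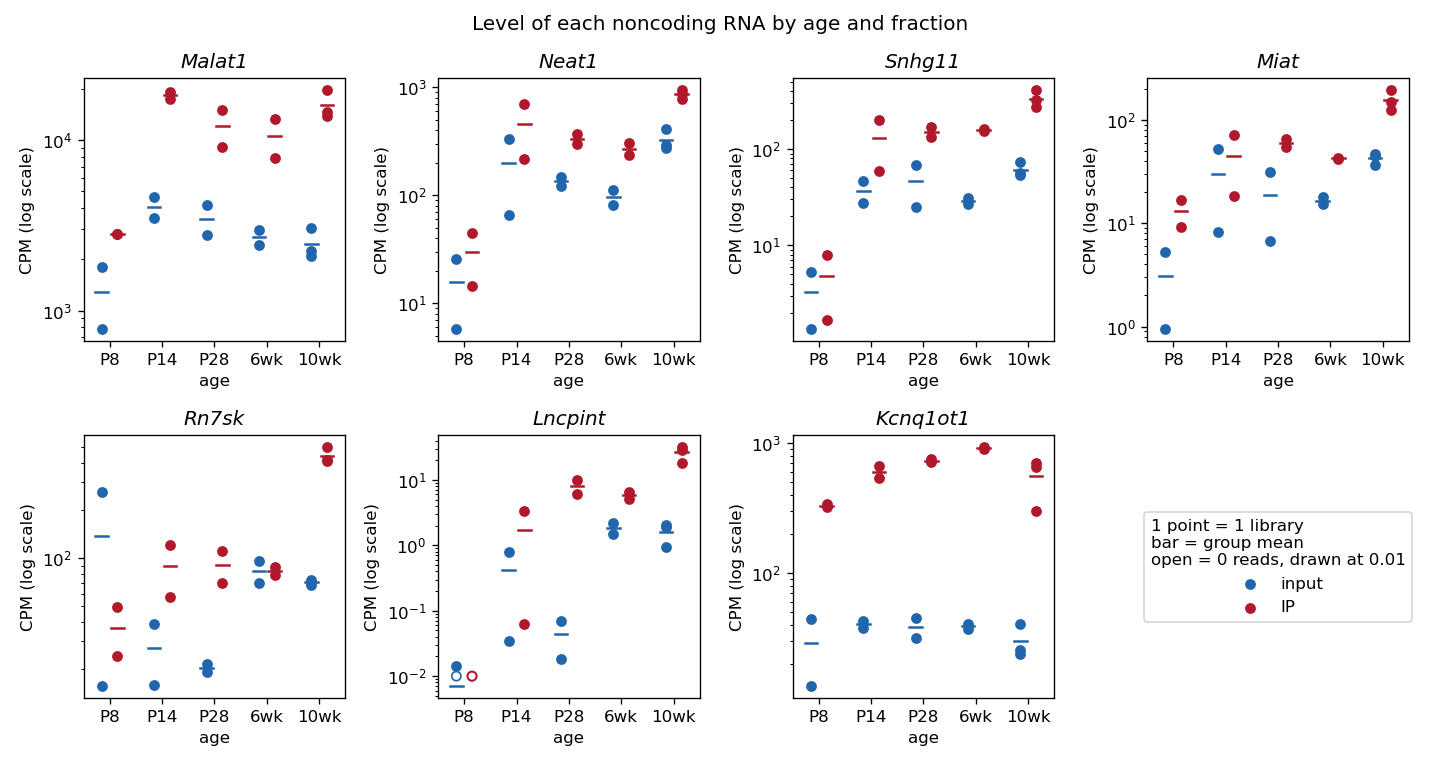
CPM (log axis) of each noncoding RNA by age, with 1 point per library, bars at group means, IP in red and input in blue. Kcnq1ot1 shows 2 separate bands at all ages, and the other 6 RNAs have their lowest IP level at P8.

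Malat1 was the second most abundant gene of the IP libraries by median CPM and the 12th of the input libraries. In IP it stood at 2819 and 2814 CPM at P8, 17399.5 and 19218 at P14, 14996 and 9169 at P28, 7892 and 13269 at 6wk, and 19605, 13920.5 and 14575 at 10wk. In input it stood at 1806 and 777 CPM at P8, 4629.8 and 3480.2 at P14, 2763 and 4157 at P28, 2976 and 2434 at 6wk, and 2075, 2243 and 3067 at 10wk. Thus the IP libraries lay above input at every age, with both P8 libraries lowest in either fraction. Averaged over the 5 ages the difference was 1.97 on the log2(CPM + 1) scale (SE 0.47), where the median of all genes was 0.13.

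Kcnq1ot1 had the widest gap between fractions. Its IP values were 339 and 321 CPM at P8, 541 and 672 at P14, 716 and 755 at P28, 931 and 898 at 6wk, and 303, 710.3 and 654 at 10wk. Its input values were 44.7 and 13.5 CPM at P8, 38.2 and 43.2 at P14, 45.6 and 31.5 at P28, 41.0 and 37.0 at 6wk, and 25.6, 24.0 and 40.5 at 10wk. Every IP library was above every input library, and same-numbered libraries differed 7.60 to 29.6-fold. The log2 difference of 4.08 (SE 0.29) ranked 11th of 18737 genes. Kcnq1, the gene on the other strand, averaged 26.9 ± 8.53 CPM over IP libraries and 74.4 ± 27.7 CPM over input libraries (SD, n = 11 each), a log2 difference of -1.29 (SE 0.32, limma adjusted p = 0.00102).

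Neat1 and Snhg11 shared a profile of very low P8 libraries and high 10wk libraries. Neat1 in IP was at 44.5 and 14.5 CPM at P8, 218 and 696 at P14, 371 and 296 at P28, 305 and 234 at 6wk, and 936, 863 and 773 at 10wk. In input it was at 25.4 and 5.76 CPM at P8, 65.6 and 331 at P14, 122 and 149 at P28, 113 and 81.4 at 6wk, and 273, 408 and 291 at 10wk. IP and input of Neat1 overlapped at P8 and P14 and separated at the 3 later ages. Snhg11 in IP was at 7.96 and 1.70 CPM at P8, 59.9 and 200.7 at P14, 168 and 133 at P28, 152 and 160.04 at 6wk, and 408, 271 and 320.3 at 10wk. In input it was at 5.24 and 1.35 CPM at P8, 27.2 and 46.6 at P14, 25.3 and 67.9 at P28, 30.8 and 27.1 at 6wk, and 53.6, 73.3 and 56.3 at 10wk. Snhg11 overlapped between fractions only at P8. Over all ages IP minus input was 1.31 for Neat1 (SE 0.31) and 1.72 for Snhg11 (SE 0.31) on the log2 scale.

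Miat, the RNA of nuclear spots in neurons, was lower. In IP it was at 16.9 and 9.18 CPM at P8, 18.2 and 72.0 at P14, 54.3 and 65.8 at P28, 42.7 and 42.0 at 6wk, and 193, 125.2 and 149.9 at 10wk. In input it was at 5.29 and 0.943 CPM at P8, 8.20 and 52.2 at P14, 6.78 and 31.0 at P28, 17.8 and 15.3 at 6wk, and 36.7, 46.7 and 44.5 at 10wk. The fractions of Miat overlapped only at P14, and the 10wk IP libraries were above all its other values. Over all ages IP minus input was 1.56 (SE 0.33) on the log2 scale.

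Rn7sk and Lncpint did not keep a fixed order of fractions. Rn7sk in IP was at 24.1 and 49.1 CPM at P8, 122 and 57.0 at P14, 70.1 and 111 at P28, 78.2 and 88.2 at 6wk, and 499, 414 and 408 at 10wk. In input it was at 15.7 and 260.4 CPM at P8, 38.5 and 15.9 at P14, 19.2 and 21.5 at P28, 69.9 and 95.8 at 6wk, and 68.3, 71.4 and 73.4 at 10wk. The highest input value came from the low-yield P8 library, and the 3 IP libraries at 10wk stood above every other Rn7sk value. Lncpint had 0 reads in both P8 IP libraries, where 3 reads would be 0.0606 and 0.0738 CPM. Its later IP values were 0.0620 and 3.39 CPM at P14, 10.1 and 6.16 at P28, 5.18 and 6.59 at 6wk, and 31.5, 18.4 and 29.0 at 10wk. In input it never exceeded 2.23 CPM. It was at 0 and 1 read at P8, 2 and 46 reads at P14, 1 and 3 reads at P28, 70 and 95 reads at 6wk, and 33, 75 and 68 reads at 10wk. Lncpint thus had at most 3 reads in all input libraries up to P28 but P14 input replicate 2. Over all ages IP minus input was 1.10 for Rn7sk (SE 0.32) and 1.68 for Lncpint (SE 0.36) on the log2 scale, which understates the change of so low a gene as Lncpint.

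Per kb of exonic sequence the order of the RNAs changed. The median IP level was 1993 CPM per kb for Malat1 (rank 3 of 18680 genes) and 267 for Rn7sk (rank 19), followed by 18.8 for Snhg11, 14.7 for Neat1, 7.22 for Kcnq1ot1, 5.84 for Miat and 0.834 for Lncpint. Over all ages the spreads of Snhg11 (20.1 ± 14.8, SD, n = 11) and Neat1 (20.8 ± 15.8) overlapped. So did those of Kcnq1ot1 (6.68 ± 2.37) and Miat (7.72 ± 6.42). These SDs include the changes with age, so they cannot show whether the genes differ within an age. By IP group means Neat1 was above Snhg11 at P8 (1.42 against 0.567), P14 and 10wk. It was below Snhg11 at P28 (16.1 against 17.7) and 6wk. Kcnq1ot1 was above Miat up to 6wk (9.82 against 4.56) and below it at 10wk (5.97 against 16.8). These differences were not tested. In input the per-kb medians ran from 0.108 for Lncpint and 0.411 for Kcnq1ot1 to 396 for Malat1. Kcnq1ot1, the longest of the 7, was thus at rank 20 of all genes in IP by CPM and at rank 3925 per kb.

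For all members but Miat the difference between fractions was smallest at P8, though for Rn7sk this rested on P8 input replicate 2, of low yield. There it was 1.248 for Malat1, 0.99 for Neat1, 0.36 for Snhg11, 1.95 for Miat, -0.90 for Rn7sk, -0.01 for Lncpint and 3.68 for Kcnq1ot1 on the log2 scale, where the median of all genes was 0.74 at that age. With TMM scaling the P8 values of Malat1, Neat1 and Snhg11 turned negative, at -0.18, -0.35 and -0.80, and that of Rn7sk was -2.33. Without the 3 low-yield libraries Rn7sk was at 1.09 at P8 and lowest at 6wk, at 0.02, and Miat was lowest at P8. At 10wk the 7 values ran from 1.42 (Neat1) to 4.11 (Kcnq1ot1), with the median of all genes at -0.01. Of the 35 differences (7 RNAs at 5 ages), 33 were above 0, and 29 with TMM scaling. Averaged over ages, all 7 stayed above 0 under every alternative and left-out library that was tried, with 0.41 as the lowest value for Rn7sk and 3.86 for Kcnq1ot1.

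**Figure D2:**
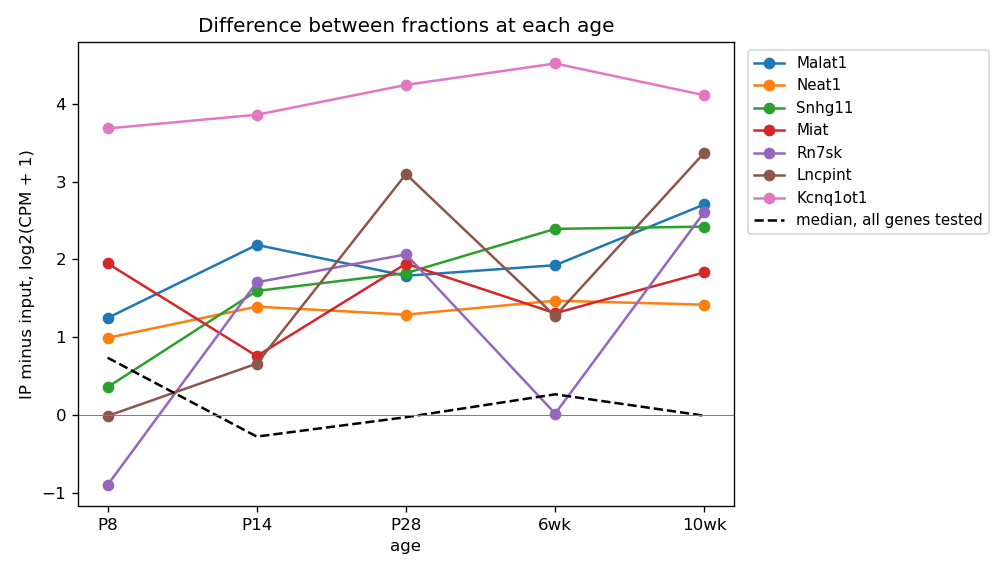
IP minus input on the log2(CPM + 1) scale (y axis) at each age (x axis) for the 7 RNAs, with the median of all genes tested dashed. Kcnq1ot1 lies between 3.68 and 4.52 at all ages, and Rn7sk is at -0.90 at P8 (1.09 without the low-yield libraries) and 2.61 at 10wk.

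Age was not used to choose the RNAs, and it was tested as adult (P28, 6wk and 10wk) against young (P8 and P14) within each fraction. In IP, 4 of the 7 rose with age: Snhg11 by 3.09 (SE 0.45, limma adjusted p = 2.47e-06), Lncpint by 3.00 (SE 0.52, adjusted p = 8.30e-05), Neat1 by 2.06 (SE 0.45, adjusted p = 0.00305) and Miat by 1.72 (SE 0.49, adjusted p = 0.0313), in log2 units. This was 4 of 7, where 2.13% of all genes were higher and 1.14% lower, and the median of all genes was 0.14. With TMM scaling, which moved that median to -0.01, 850 genes were higher and 1153 lower, where 400 and 213 were before. Rn7sk (1.44, adjusted p = 0.0667), Malat1 (0.79, adjusted p = 0.629) and Kcnq1ot1 (0.66, adjusted p = 0.464) did not pass.

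In input, Neat1 rose by 1.86 (SE 0.45, limma adjusted p = 0.00792) and Snhg11 by 1.85 (SE 0.45, adjusted p = 0.00675). This was 2 of 7, where 3.07% of all genes were higher and 0.582% lower, with a median of 0.38. With TMM scaling, which moved that median to 0.04, 690 were higher and 416 lower where 575 and 109 were before. Miat (1.38, adjusted p = 0.107), Lncpint (0.75, adjusted p = 0.488), Malat1 (0.36, adjusted p = 0.840), Rn7sk (0.28, adjusted p = 0.806) and Kcnq1ot1 (0.14, adjusted p = 0.909) did not pass. The last 3 turned negative with TMM scaling, at -0.23 for Malat1, -0.31 for Rn7sk and -0.44 for Kcnq1ot1.

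**Figure D3:**
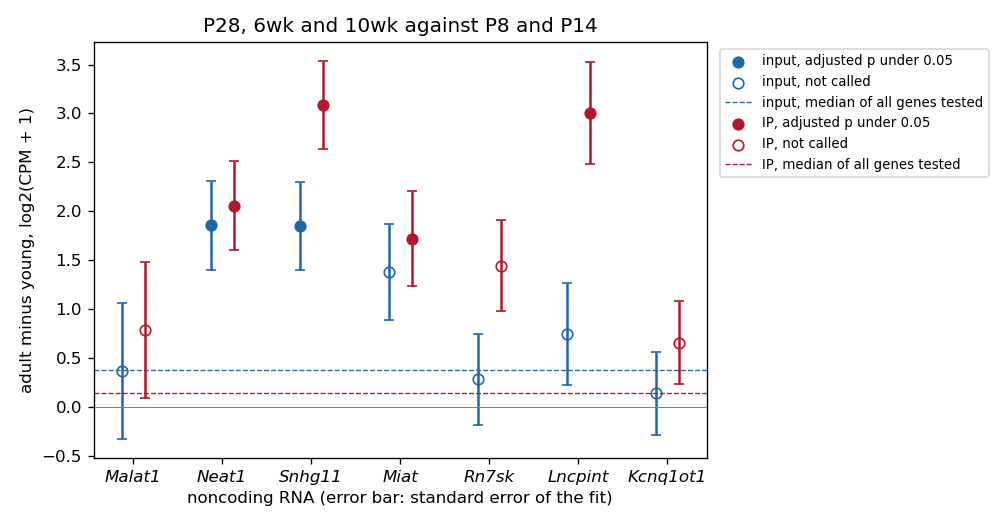
Adult minus young on the log2(CPM + 1) scale (y axis) for each RNA (x axis) in input (blue) and IP (red), with standard errors. Filled points passed the limma test at an adjusted p under 0.05, and dashed lines give the medians of all genes, 0.38 in input and 0.14 in IP.

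Single libraries decided some of these calls. In IP, Snhg11 and Lncpint passed with every library left out in turn. Neat1 did not pass without P8 IP replicate 2 (adjusted p = 0.112) or P14 IP replicate 1 (adjusted p = 0.148), and Miat failed in 8 such fits (adjusted p = 0.0505 to 0.387) and without the 3 low-yield libraries (Miat 1.19, adjusted p = 0.159). In input, Neat1 failed without P8 input replicate 2 (adjusted p = 0.0764) or P14 input replicate 1 (adjusted p = 0.365), and Snhg11 failed without the latter (adjusted p = 0.134). Calls were also gained: Malat1 in IP in 2 such fits (adjusted p = 0.0385 and 0.0469), Miat in input in 3 (adjusted p = 0.00640 to 0.0422), and Rn7sk in IP in 3 (adjusted p = 0.00127 to 0.0363) and in input in 1 (adjusted p = 0.0171). Without the 3 low-yield libraries, which leaves 1 library in each of their groups, Rn7sk was at 1.60 in IP and 1.28 in input. The medians of all genes were 0.04 and -0.08 there.

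The P8 libraries were the lowest for most members. Both P8 IP libraries were below all 9 older IP libraries for 6 of the 7 RNAs (all but Kcnq1ot1), which 3.12% of all genes showed. In input 5 of 7 did so (all but Rn7sk and Kcnq1ot1), against 7.30% of all genes. From P8 to P14 the mean IP level was 6.50-fold higher for Malat1, 15.5-fold for Neat1, 27.0-fold for Snhg11, 3.46-fold for Miat and 2.44-fold for Rn7sk, and for Lncpint at least 23.4-fold higher, against 3 reads in a P8 library. That bound rested on P14 IP replicate 2 (152 reads), since replicate 1 had 2 reads, below the bound's floor. In input the P14 mean was 3.14-fold that of P8 for Malat1, 12.7-fold for Neat1, 11.2-fold for Snhg11, 9.70-fold for Miat and 0.197-fold for Rn7sk. These P8 input means include the low-yield replicate 2. At 10wk the IP folds over P8 were 5.69, 29.1, 68.9, 12.0 and 12.0 in the same order, and at least 357 for Lncpint. With P14 alone as the young group, a comparison added after seeing the data, none of the 7 passed in either fraction (limma), and Lncpint came nearest (2.45 in IP, adjusted p = 0.0554). Of the 18737 genes 46 passed there in input and 128 in IP, where 684 and 613 did before. So few genes pass in this comparison that 0 of 7 is not a result about these RNAs.

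A test for any difference among the 5 ages (limma F test) called Neat1 (F = 15.1, adjusted p = 3.84e-06), Snhg11 (24.0, 2.81e-09), Lncpint (11.9, 6.12e-05), Rn7sk (8.26, 0.00160) and Miat (6.53, 0.00680) in IP. That was 5 of 7 where 8.21% of all genes were called. Malat1 (adjusted p = 0.296) and Kcnq1ot1 (adjusted p = 0.466) did not pass, but both passed with TMM scaling and by edgeR. Those settings called 4042 and 2896 of the 18737 genes, where 1539 were called before, so 8.21% is not their background. Without the 3 low-yield libraries, which leaves 1 library in each of their groups, F was 7.72 for Malat1 and 4.66 for Kcnq1ot1. Rn7sk did not pass with TMM scaling (adjusted p = 0.0963). In input the F test called Neat1 (adjusted p = 1.60e-05), Snhg11 (adjusted p = 0.000110) and Miat (adjusted p = 0.00558), 3 of 7 against 4.35% of all genes. There edgeR called 673 of the 18737 genes, where limma called 815. Miat did not pass there by edgeR (adjusted p = 0.0867), with no filter (adjusted p = 0.149) or without the 3 low-yield libraries (adjusted p = 0.118), while Rn7sk passed by edgeR (adjusted p = 0.00216) and without those libraries (adjusted p = 0.00144).

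The age change itself was not shown to differ between fractions. The change of enrichment from young to adult was 2.25 for Lncpint (SE 0.74, adjusted p = 0.716), 1.23 for Snhg11 (SE 0.63, adjusted p = 0.803) and 1.16 for Rn7sk (SE 0.66, adjusted p = 0.803), and 0.20 to 0.52 for the other 4. Its median over all genes was -0.25. limma called 0% of genes in this test, with 1162 genes at an unadjusted p under 0.05, while 32 were called with TMM scaling and 61 by edgeR, none of them a member. Without P8 input replicate 1, which leaves the low-yield library alone at that age, the change was 2.15 for Rn7sk and 2.26 for Lncpint. With 1 library in that group these values are given for size only and are not a result about these RNAs.

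Neuronal markers moved with age as well. Of 12 neuron markers, 8 were higher in adult than in young IP (median log2 1.74) and 7 in input (median log2 2.02), where 2.13% and 3.07% of all genes were higher. Their summed level was 149 to 633 CPM in young IP and 826 to 1685 CPM in adult IP, which did not overlap, and no marker was at 0 in any library. Their IP sum was 1622 to 1685 CPM at 6wk and 826 to 1192 CPM at 10wk. In input it was 2006 to 2419 CPM at 6wk and 2250 to 3325 CPM at 10wk. From 6wk to 10wk the mean IP level went from 270 to 857 CPM for Neat1, 156 to 333 for Snhg11 and 42.4 to 156 for Miat. It went from 83.2 to 440 CPM for Rn7sk, 5.88 to 26.3 for Lncpint, 10581 to 16034 for Malat1 and 914 to 556 for Kcnq1ot1. The outer hair cell sum was 520 to 1085 CPM in young and 273 to 850 CPM in adult IP. The part of neuronal RNA in the age changes was not tested.

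Neat1 was also set against Malat1 within each library, a ratio that does not move with scaling. In IP, Neat1 had 1.58 and 0.517 reads per 100 Malat1 reads at P8, 1.254 and 3.62 at P14, 2.48 and 3.23 at P28, 3.87 and 1.77 at 6wk, and 4.78, 6.20 and 5.30 at 10wk. In input the values were 1.41 and 0.741 at P8, 1.42 and 9.51 at P14, 4.42 and 3.59 at P28, 3.80 and 3.34 at 6wk, and 13.2, 18.2 and 9.49 at 10wk. The 10wk IP libraries were thus above all other IP libraries, and one P14 library of each fraction lay well above its partner. The adult mean of the log2 ratio was higher by 1.39 in IP (7 against 4 libraries, two-sided exact permutation p = 0.0242, adjusted over the 2 fractions 0.0485) and by 1.73 in input (exact permutation p = 0.0606). The smallest p that the 330 arrangements allow is 0.00303. The IP value did not pass without the 3 low-yield libraries (1.38, adjusted exact p = 0.119).

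**Figure D4:**
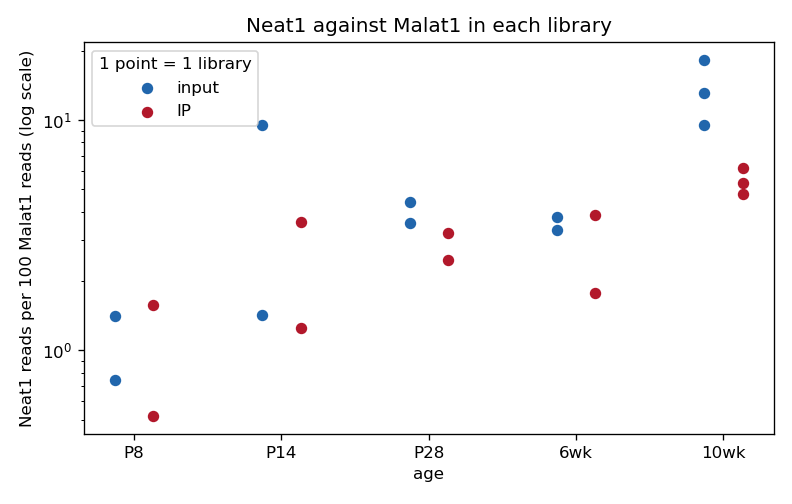
Neat1 reads per 100 Malat1 reads (log axis) by age, with 1 point per library, IP in red and input in blue. The 10wk libraries reach 4.78 to 6.20 in IP and 9.49 to 18.2 in input.

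The levels were then compared with the share of reads outside genes, which holds introns and other unannotated RNA. Across the 11 IP libraries the log2 level rose with that share for 6 of the 7 RNAs, where 4.25% of all genes had a positive r at an unadjusted permutation p under 0.05 (median r of all genes -0.04). They were Miat (r = 0.81, rho = 0.80), Neat1 (0.78, 0.80), Malat1 (0.75, 0.88), Lncpint (0.74, 0.75), Snhg11 (0.72, 0.83) and Rn7sk (0.64, 0.56). Their Pearson permutation p-values were 0.00286 to 0.0343, adjusted over 14 relations 0.00815 to 0.0480, and those of rho 0.000670 to 0.0766, adjusted 0.00938 to 0.119. By rho, Rn7sk did not pass (adjusted p = 0.119). Kcnq1ot1 did not pass by either (r = -0.04, rho = -0.19, permutation p = 0.896 and 0.577, adjusted 0.896 and 0.673). Without the 2 IP libraries farthest from the median share, 10wk IP replicate 1 and P28 IP replicate 1, r was 0.65 to 0.82 for the 6 RNAs, but none passed any more (adjusted permutation p = 0.0601 to 0.140). Without adjustment 4 of 7 were under 0.05, against 2.19% of all genes, and r was 0.33 for Kcnq1ot1.

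Age and the share moved together, with 23.0% of IP reads outside genes on average at P8 and 41.6% at 10wk. With each age's mean subtracted, r was 0.82 for Malat1 and 0.72 for Lncpint, which passed, and 0.67, 0.54 and 0.52 for Snhg11, Neat1 and Miat, which did not. For Rn7sk it turned to -0.54 and for Kcnq1ot1 it was -0.48. At an age with 2 libraries the values left after subtraction mirror each other and are not independent. The permutations treated all values as free, so the p-values behind these calls can be too small. In the same setting 15.8% of all genes had a positive r at an unadjusted p under 0.05, so this count of 2, or 3 without adjustment, stood nearer the background. In input r was negative for Snhg11 (-0.91), Neat1 (-0.86), Malat1 (-0.85) and Miat (-0.83), with rho -0.82, -0.58, -0.47 and -0.62 and adjusted permutation p-values of r of 0.00462 to 0.0135 and of rho of 0.0135 to 0.186. Of all genes, 39.7% had a negative r at an unadjusted p under 0.05 there (median r -0.58), so 4 of 7 was near the background and is not a result about these RNAs. Without the 2 P8 input libraries, the farthest from the median, r was -0.61, -0.35, -0.24 and -0.50, and none passed, so these relations rested on P8. With age means subtracted, r in input was -0.85 for Malat1, -0.81 for Snhg11 and 0.78 for Rn7sk, which passed, and -0.59 for each of Neat1, Miat and Kcnq1ot1 and 0.15 for Lncpint, which did not. In that setting 59.0% of all genes had a negative r at an unadjusted p under 0.05 and 0.502% a positive one (median r -0.69). The negative r of Malat1 and Snhg11 is thus not a result about these RNAs. These p-values carry the same limit as those in IP. With no age means subtracted, r in input for Rn7sk, Lncpint and Kcnq1ot1 was 0.46, -0.41 and -0.58, with adjusted permutation p-values of 0.110 to 0.232.

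**Figure D5:**
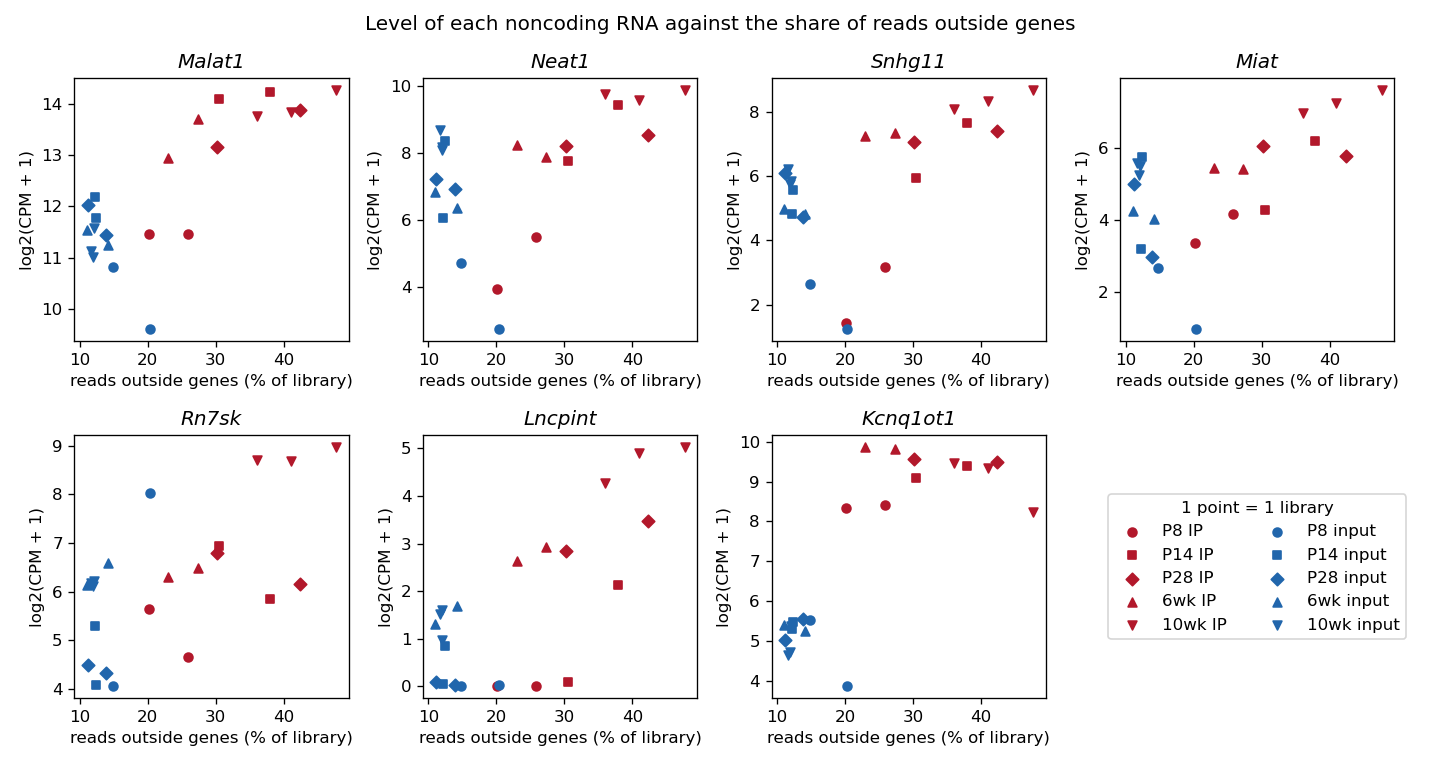
log2(CPM + 1) of each RNA (y axis) against the share of reads outside genes in percent (x axis), with 1 point per library, red for IP, blue for input and a symbol for each age. In IP the points climb for 6 RNAs, while those of Kcnq1ot1 have no slope (r = -0.04).

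The 7 RNAs also varied together in IP, with a median r of 0.72 over their 21 pairs (0.07 to 0.98), against 0.40 in input (-0.73 to 0.96). All of these values share the same 11 libraries and their depths, and most members share the low P8 libraries. Age was not removed and r was not computed for other gene pairs, so this is a description without a background. The genes whose IP profile was nearest to each member included other members. They were sought among 10750 genes with a mean of at least 5 CPM, with predicted, Rik and pseudogene symbols left out. The best of so many genes over 11 libraries reach a high r in any case, so they are a description and were not tested. Neat1 was nearest to Snhg11 (r = 0.979) and then to Nfkbiz (0.957), a nuclear inhibitor of NF-kappaB, and Snhg11 to Neat1 and then to Snx32 (0.966). Miat was nearest to Lncpint (0.948) and Zranb2 (0.943), a splicing factor. Lncpint was nearest to Fryl (0.969) and Tns1 (0.958). Malat1 was nearest to Ap2m1 (0.963), an adaptor subunit of clathrin coats, and Csmd1 (0.962). Rn7sk was nearest to Ttn (0.964), the giant muscle protein titin, and Synm (0.862), and Kcnq1ot1 to Bdh1 (0.977) and Got1 (0.965), which are metabolic enzymes.

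Partner genes of these RNAs did not follow one pattern. The gene lists here and below were chosen with earlier results of these data known, so their counts and p-values are a description. For scale, 20.0% of all genes were higher in IP and 12.5% lower. Of 17 tested genes for nuclear speckle proteins, 13 were higher in IP and 0 lower (median log2 1.29), led by Rbm25 (2.56, SE 0.31, limma adjusted p = 1.08e-09) and Srrm1 (1.91, SE 0.30, adjusted p = 7.62e-07), both factors of splicing. Of 19 paraspeckle protein genes, 4 were higher and 0 lower (median 0.50), led by the cleavage factor Cpsf6 (1.67, limma adjusted p = 1.55e-05) and Srsf10 (1.46, adjusted p = 0.000320). The core paraspeckle proteins Nono (-0.57, adjusted p = 0.161) and Sfpq (-0.32, adjusted p = 0.435) did not pass, and with TMM scaling both passed as lower. The difference between the counts of the 2 lists was not tested.

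Of 10 genes for the 7SK complex and P-TEFb, 4 were higher and 1 lower in IP (median log2 0.14, all genes 0.13), where 20.0% of all genes were higher and 12.5% lower. Ccnt2, a cyclin of P-TEFb, was higher (2.44, limma adjusted p = 9.78e-10), and Hexim2 was lower (-1.04, adjusted p = 0.0266). Larp7 (-0.26, adjusted p = 0.642), Mepce (0.30, adjusted p = 0.500) and Hexim1 (-0.56, adjusted p = 0.160), the direct partners of Rn7sk, did not pass, though Hexim1 passed as lower with TMM scaling (-0.79). In the Kcnq1 imprinted domain 0 of 8 tested genes were higher and 4 were lower (median -0.48), led by Cdkn1c, a cell cycle inhibitor (-1.37, limma adjusted p = 0.000397), and Kcnq1, a potassium channel of the stria vascularis.

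Other noncoding RNAs are given by kind, and differences between kinds were not tested. The named lists were chosen with earlier results of these data known, so their counts and p-values do not show that such RNAs in general are higher in IP. Of 13 tested among 15 further nuclear long noncoding RNAs, 10 were higher in IP and 0 lower (median log2 1.45), where 20.0% of all genes were higher and 12.5% lower. Gm26917, at 561 ± 392 CPM in IP and 42.9 ± 26.2 in input (SD, n = 11 each), and Xist, the RNA of the inactive X chromosome, at 193 ± 97.4 and 26.0 ± 16.0 CPM, led with 3.62 and 2.85 (limma adjusted p = 1.82e-15 and 7.29e-11). Of 13 snoRNA host and Snhg genes, 3 were higher and 0 lower (median 0.05), among them Snhg17 (1.80, adjusted p = 0.000406) and Snhg20 (1.67, adjusted p = 0.00148). The 3 of 13 was near the share of all genes and is not a result about this list. Of the small structured RNAs 3 of 10 were tested and 2 were higher, Scarna2 (1.91, limma adjusted p = 0.000133) and Rmrp (1.40, adjusted p = 0.0313), of which Rmrp did not pass with TMM scaling (adjusted p = 0.258). By annotation, 47.1% of sense intronic genes, 42.9% of genes of the class TEC (transcripts that await experimental evidence), 20.0% of lincRNA genes and 8.59% of antisense genes were higher in IP, against 19.8% of protein-coding genes.

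With age 1 of the 83 tested list genes was called in each fraction, where 3.07% of all genes were higher and 0.582% lower in input, and 2.13% and 1.14% in IP. In adult against young input this was Peg13, an imprinted noncoding RNA (log2 2.29, limma adjusted p = 0.000199), and in IP Tspan32 (2.002, adjusted p = 0.0157). Larp7, Mepce, Hexim1, Nono, Sfpq, Kcnq1 and Cdkn1c were not called in either, the nearest being Cdkn1c in IP (-1.22, adjusted p = 0.126), which passed with TMM scaling in IP (-1.47, adjusted p = 0.000329) and input (-1.14, adjusted p = 0.00358). In all, TMM scaling gave 2 called list genes in input (Cdkn1c and Peg13) and 6 in IP, with Hnrnph1, Smarca4, Zfas1 and Peg13 beside Cdkn1c and Tspan32.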

How the data were processed

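Per the submitters' processing notes, TopHat (no version named) and GRCm38 were used. No source used here names the counting program or strand setting. The authors deposited 1 CPM table per library, scaled to all reads including 5 entries that name no gene, which were kept out of tests. Where the design text has P21 the labels have P28, which was used. All CPM values (100%) were whole multiples of 1 read within 0.01, which gave the whole reads, each worth 0.0141 to 0.0325 CPM. Symbols came from GENCODE M21 (49326 of 49671 identifiers).

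The 18737 genes that reached 1 CPM in 2 or more libraries entered the fit on log2(CPM + 1), a scale that understates changes of low values, by limma 3.58.1 in R 4.3.3: 10 group means, a trended prior, two-sided. A call needed an adjusted p under 0.05 (Benjamini-Hochberg, all tested genes together). A count test on recovered reads (edgeR 4.0.16, quasi-likelihood) called 7665 genes in IP against input, where limma called 6087. Correlations used 100000 permutations. The scripts were tested on simulated data. The members, gene lists and naming rule (all members, the 2 genes nearest to each in IP, the 2 largest called list genes each way and 7 set partner genes) were chosen with earlier results of these data known. One list gene that the rule names is not reported here. P-values measure the spread between these libraries. Alternatives were a pseudocount of 0.25, no filter, TMM, CPM over gene reads, edgeR, a replicate block, each library left out, and the 3 low-yield libraries left out.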

Additional observations from a re-analysis of the deposited data

How the results depend on the processing

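The median log2 difference between IP and input over the 7 RNAs was 1.68 and lay between 1.47 and 1.88 with each library left out, and 31 to 34 of the 35 differences at single ages were above 0. Calls among the 7 fell from 2 to 1 in input, from 4 to 2 in IP and from 5 to 3 in the IP F test with no filter. They fell to 0 in input and 0 in IP with P14 alone as young, where 46 and 128 of all genes were called. This choice, TMM with the block and TMM without the low-yield libraries were chosen after seeing the data. With each library left out they ranged from 0 to 3 in input, 2 to 6 in IP, 0 to 2 for the change of enrichment, 3 to 6 for the F test in input and 4 to 7 in IP. Leaving out a library of 2 assumes that the lone one varies like the other groups.

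Direction turned for uncalled values in input, adult against young. These were Malat1 (-0.23 with TMM, also with the block, -0.38 by edgeR, -0.52 with P14 as young), Rn7sk (-0.31 with TMM, also with the block, -1.66 by edgeR, -0.71 to 1.28 over left-out libraries) and Kcnq1ot1 (-0.44 with TMM, also with the block, -0.11 over gene reads, -0.52 by edgeR, -0.27 without the low-yield libraries, -0.16 with both, -0.21 with P14 as young, -0.27 to 0.55 over left-out libraries). With P14 as young, Malat1 in IP turned to -0.56, and the changes of enrichment of Malat1, Neat1 and Rn7sk to -0.046, -0.00013456 and -0.14. That of Neat1 ran from -0.38 to 0.78 and that of Miat from -0.29 to 0.98 over left-out libraries. The causes were not tested.

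The Neat1 to Malat1 difference in IP did not pass with a pseudocount of 1 (1.36, adjusted exact permutation p = 0.0606) or without the low-yield libraries (1.38, 0.119). It ran from 0.92 to 1.86 in IP and from 1.27 to 2.50 in input over left-out libraries. For the share of reads outside genes, called RNAs in input fell from 4 to 1 without the low-yield libraries and to 0 without the 2 farthest libraries, and in IP from 6 to 2 with age means subtracted and to 0 without the 2 farthest. At an unadjusted p under 0.05 the counts in these settings were 2 and 0 in input, against 5.43% and 6.32% of all genes, and 3 and 4 in IP, against 15.8% and 2.19%. There r turned in input for Rn7sk (-0.31 without the low-yield libraries, -0.054 without the 2 farthest), Kcnq1ot1 (0.49 and 0.39 in the same order, and 0.085 over gene reads) and Lncpint (0.15 with age means subtracted), and in IP for Rn7sk (-0.54 with age means subtracted) and Kcnq1ot1 (0.24 over gene reads, 0.33 without the 2 farthest).

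Of all genes, 613 were called in adult against young IP. That became 2003 with TMM, 2008 with TMM and the block, 1101 over gene reads, 1875 by edgeR, 1133 without the low-yield libraries, 1494 with TMM as well and 128 with P14 as young (174 to 1620 over left-out libraries). In input 684 became 440 with no filter, 1106 with TMM, 1120 with TMM and the block, 1264 without the low-yield libraries, 1472 with TMM as well and 46 with P14 as young (175 to 7178 over left-out libraries). For the change of enrichment 0 became 16 with no filter, 32 with TMM, 2 over gene reads, 61 by edgeR, 1 without the low-yield libraries, 92 with TMM and the block and 21 with TMM without those libraries (0 to 3839 over left-out libraries). In the F tests 1539 in IP became 4042 with TMM, 4045 with the block as well, 2896 by edgeR, 4132 without the low-yield libraries and 4530 with TMM as well, and 815 in input became 1326 and 1711 under the last 2 settings. Same-numbered IP and input libraries deviated together in 5 of 11 pairs (r over 0.1, range -0.022 to 0.351), namely both at 6wk and all 3 at 10wk but none at P8, P14 or P28, so the numbers were not taken as pairs. At an age with 2 libraries per fraction both pairs give the same r by construction (0.351 at 6wk), so the 11 values are not independent. The replicate block (consensus correlation 0.0943) left the count of called RNAs at 2 in input, 4 in IP, 0 for the change of enrichment and 3 and 5 in the F tests, with the median between fractions at 1.68 and 33 differences above 0. Depth limits Lncpint, which had 0 to 3 reads in 8 libraries.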
